A study of Homo sapiens with 9 samples.

Results

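The EGR and NR4A transcription factors, the NAB corepressors that restrain EGR proteins, and the immediate early response genes IER2 and IER3 were followed in LiSa-2 cells, a human liposarcoma line, after hyaluronidase. The set was made of every probe set on the array whose only gene symbol in the platform annotation was EGR1, EGR2, EGR3, NAB1, NAB2, NR4A1, NR4A2, NR4A3, IER2 or IER3. Of these 10 genes, 9 had at least 1 such probe set, of 19775 genes so represented on the array. EGR2 had none in the annotation used here and was not analysed here. The 9 genes had 21 probe sets, 20 of which passed the filter on dim signals, and the brightest one of each gene passed.

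The arrays came from 3 groups of 3 samples. One group received phosphate-buffered saline (PBS) and was harvested at 24 h. The other groups received bovine testicular hyaluronidase (HAase), which cleaves the matrix polysaccharide hyaluronan, at 400 µg/mL, and were harvested at 6 h or 24 h. All cells grew in plates in medium with bovine serum. No PBS sample was taken at 6 h, so the time of harvest and the enzyme cannot be told apart in the 6 h comparison. Between the 6 h and 24 h groups, the time of harvest and the length of treatment cannot be told apart either. No group received inactivated enzyme. A single cell line was used. Nothing in the labels tells if replicates were cultured apart, so the p-values cover the spread between these samples alone, and that spread may be technical.

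Immediate early genes are transcribed within minutes of a stimulus without new protein synthesis, and most make short-lived mRNAs. EGR1 and EGR3 encode zinc finger factors that bind GC-rich sites, and their genes respond to the ERK pathway through serum response factor (SRF) and its ternary complex partners. NAB1 and NAB2 bind EGR proteins and repress their targets, and NAB2 is itself switched on by EGR proteins, which closes a negative feedback loop. NR4A1, NR4A2 and NR4A3 are orphan nuclear receptors, regulated mainly through their amount rather than by a ligand, and their genes respond to cAMP and CREB, calcium and MEF2, and growth factors. IER2 encodes a small nuclear protein and IER3 a stress-responsive protein linked to cell survival, whose gene is a target of NF-kappaB.

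All 9 genes were higher after 6 h of hyaluronidase than in PBS, and they then parted ways. EGR1 and EGR3 rose steeply and were 11.1-fold and 6.45-fold lower again at 24 h than at 6 h, IER3 was still 17.3-fold above PBS at 24 h, and NR4A2, IER2 and NAB2 kept part of their rise. NAB1 alone passed the test as higher at 6 h and lower at 24 h, although its other probe sets did not pass as lower. NR4A3 did not pass the test against PBS at 24 h. The order of group means was 6 h, then 24 h, then PBS in 8 genes, and 6 h, then PBS, then 24 h in NAB1. In bulk RNA a change in the number of cells that make a transcript and a change in RNA per cell cannot be told apart.

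**Figure D1:**
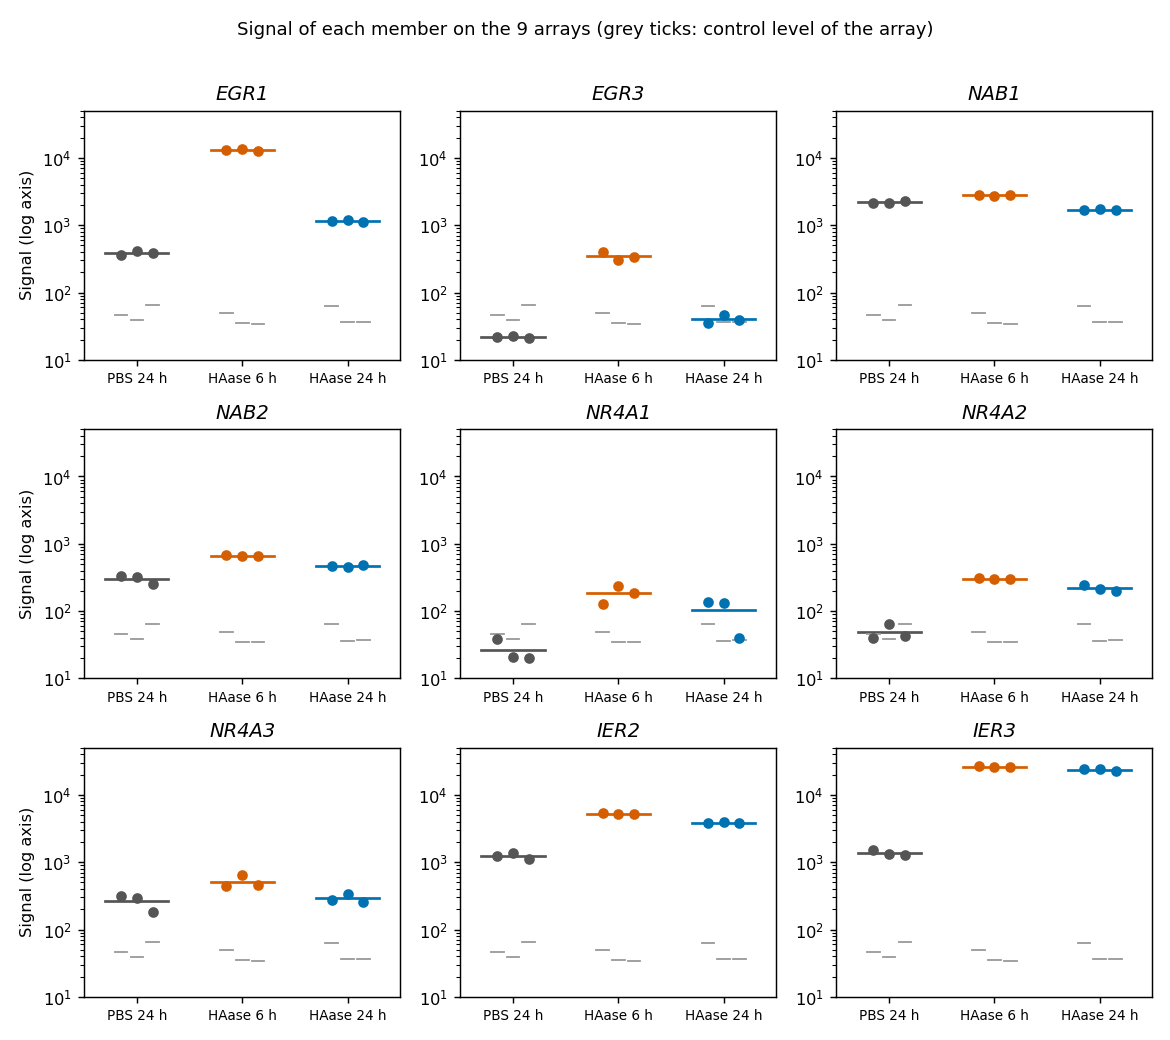
Deposited signal of the brightest probe set of each gene on the 9 arrays, on a log axis. Points are arrays, coloured lines are group means of 3 arrays, and grey ticks are the brightest Bacillus subtilis control probe set of each array. EGR1 stood at a mean of 13060 at 6 h against 388.3 in PBS and 1159 at 24 h, while IER3 stood at 26150 at 6 h and 23840 at 24 h.

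Arrays of a group were alike across the tested genes (r of at least 0.9891) and less like those of other groups (r of at most 0.9736). The brightest of 27 control probe sets for bacterial transcripts lay between 34.2 and 65 on the 9 arrays and is called the control level here. Of 8 markers of the fat cell lineage 7 lay above it on every PBS array, with leptin (LEP) below it on all 9 arrays, and the summed signal of this list went from 79010 to 84190 in PBS to 69410 to 72550 at 6 h and 43580 to 49200 at 24 h. Of the 3 genes of the liposarcoma amplicon, MDM2 and CDK4 lay above it on all 9 arrays, with means of 985.8, 1050 and 1036 and of 7786, 7600 and 7266 in PBS, at 6 h and at 24 h, while HMGA2 lay above it on 7 and went from a mean of 51.03 to 724.6 and 1643. Of 7 mesenchymal markers 6 lay above it on every PBS array. This list summed to 44120 to 48590 in PBS, 45120 to 47160 at 6 h and 36560 to 44630 at 24 h. Means of COL1A1, COL1A2 and SPARC went from 1247, 2027 and 14540 in PBS to 1042, 1451 and 13800 at 6 h and 335.8, 445.5 and 10120 at 24 h. Means of COL6A3 were 398.6, 932.1 and 817, of PDGFRB 241.3, 555.8 and 192.4, and of VIM 27450, 28210 and 29100. THY1 lay above the control level on 3 arrays. Leukocyte markers summed to 269.3 to 309.8 in PBS, 397.6 to 435.1 at 6 h and 917.2 to 942.6 at 24 h over 6 genes, while the pan-leukocyte gene PTPRC lay at or below the control level on all 9 arrays. CD163, LCP1 and CSF1R lay above it on all 9 arrays, and their means went from 81.19, 74.98 and 81.04 in PBS to 149.7, 96.89 and 114.9 at 6 h and 508.1, 147.7 and 182.3 at 24 h. CD3E lay above it on 3 arrays, at means of 9.931, 27.54 and 46.24, and CD14 on 2, at means of 26.47, 6.372 and 22.52. Epithelial markers summed to 472.1 to 717.8, 374.3 to 428 and 231.1 to 351 over 8 genes. EPCAM, CDH1, KRT19 and ESRP1 were never above the control level. KRT8 lay above it on all 9 arrays, at means of 132.9, 174.3 and 145.9, and KRT18 on 2. KRT5 and KRT14 lay above it on 6 arrays each. Their means went from 77.6 and 310.5 in PBS to 61.92 and 92.81 at 6 h and 28.22 and 14.68 at 24 h. Endothelial markers summed to 302.9 to 371.5, 392.4 to 447.2 and 435.2 to 458.7 over 6 genes, with CDH5, TEK and EMCN never above it and PECAM1 above it on all 9 arrays, at means of 236.1, 315.7 and 348.8. VWF lay above it on 3 arrays, at means of 51.7, 27.37 and 12.83, and KDR on 2, at means of 18.48, 38.16 and 39.75. As a sign of RNA quality, the log2 ratio of the 3' probe set to the 5' one lay between -0.017 and 0.041 in PBS, -0.056 and 0.038 at 6 h and -0.207 and -0.023 at 24 h for GAPDH, and between 1.557 and 1.695, 1.137 and 1.5, and 1.384 and 1.616 for ACTB. The part of these values in the results was not tested.

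EGR1, the founding factor of its family, had the largest rise of the 9 genes at 6 h. The 250 bases before its annotated start, from the RefSeq table of build GRCh38.p14 at chr5:138465229-138465478 (+ strand), are shown because this stretch holds a pair of CArG boxes, the sequence that SRF binds. Capitals mark the CArG boxes and CRE cores (TGACG or its reverse complement).
EGR1 promoter: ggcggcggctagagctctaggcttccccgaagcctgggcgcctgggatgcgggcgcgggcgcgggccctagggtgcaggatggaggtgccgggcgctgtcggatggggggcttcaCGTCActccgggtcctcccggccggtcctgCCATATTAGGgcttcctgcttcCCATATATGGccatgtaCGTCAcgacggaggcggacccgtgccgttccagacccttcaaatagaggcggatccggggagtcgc
The CArG boxes lay at -105 to -96 and -83 to -74 from the start, and the CRE cores at -135 to -131 and -66 to -62. A CArG box was found in 1.16% of 35116 such windows of all genes, and 2 or more in 0.0313%. A CRE core was found in 21.2%. These are matches of letters and not measured sites.

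The main EGR1 probe set read 367.3, 408.1 and 389.6 in PBS, 12980, 13460 and 12740 at 6 h, and 1164, 1199 and 1113 at 24 h. No array of a group overlapped those of another. The log2 fold change on the scale of signal + 16 was 5.02 ± 0.06 (SE) at 6 h against PBS, or 32.4-fold (limma adjusted p = 3.6e-09). At 24 h it was 1.54 ± 0.06, or 2.91-fold (adjusted p = 5.29e-07), and the 24 h level was 11.1-fold lower than that at 6 h (adjusted p = 1.06e-07). EGR1 had 2 further probe sets, which gave 4.60 ± 0.13 and 5.11 ± 0.12 at 6 h, 1.33 ± 0.13 and 1.76 ± 0.12 at 24 h, and -3.27 ± 0.13 and -3.35 ± 0.12 between the times, all past the test.

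EGR3, a close relative often induced after EGR1, was a dim gene outside the 6 h group. Its probe set read 21.93, 22.84 and 20.76 in PBS, each below the control level of its array, and 397.1, 303.2 and 342.9 at 6 h. At 24 h it read 35.75, 46.08 and 38.88, above the control level on 2 of 3 arrays. The groups did not overlap. EGR3 was at least 5.57-fold higher at 6 h than in PBS, where only an upper bound is known (adjusted p = 3.73e-07), and 6.45-fold lower at 24 h than at 6 h (adjusted p = 3.01e-06). The bound was computed against the control level of each PBS array on the scale of signal + 16. Between 24 h and PBS the model gave 0.57 ± 0.10 (adjusted p = 0.00332), but both groups lay so close to the control level that the size of this difference is uncertain and no fold is given.

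By their brightest probe sets, the corepressor genes changed less than EGR1 in each comparison. Windows of 250 bases before the annotated starts of NAB2, at chr12:57088864-57089113 (+ strand), and of the first start of NAB1, at chr2:190648645-190648894 (+ strand), both GRCh38.p14, are shown because they hold matches to the EGR site (GCGTGGGCG or GCGGGGGCG, either strand, in capitals).
NAB2 promoter: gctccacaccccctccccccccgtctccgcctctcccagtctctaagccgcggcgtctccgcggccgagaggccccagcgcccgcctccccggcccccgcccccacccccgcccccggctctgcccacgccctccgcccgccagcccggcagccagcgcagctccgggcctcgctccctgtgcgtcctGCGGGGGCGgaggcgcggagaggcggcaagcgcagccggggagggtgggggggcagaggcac
NAB1 promoter: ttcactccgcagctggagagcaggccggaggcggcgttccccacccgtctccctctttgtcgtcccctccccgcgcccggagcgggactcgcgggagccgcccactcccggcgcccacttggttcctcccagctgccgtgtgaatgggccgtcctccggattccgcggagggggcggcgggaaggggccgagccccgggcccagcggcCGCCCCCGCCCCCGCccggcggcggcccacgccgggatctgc
The NAB2 match lay at -62 to -54. The NAB1 matches lay at -42 to -34 and -36 to -28 and overlap each other. The next window of NAB1 overlaps this one, holds the same pair and a further match, and is not printed. An EGR site was found in 5.37% of all windows, and 2 or more in 0.592%.

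NAB2 read 337.2, 320.1 and 251.9 in PBS, 675, 651.1 and 663.2 at 6 h, and 470.9, 445 and 481.3 at 24 h, with no overlap between groups. It rose 2.14-fold at 6 h (log2 fold change 1.10 ± 0.10, adjusted p = 9.17e-05) and 1.52-fold at 24 h (0.60 ± 0.10, adjusted p = 0.00195). Its level fell 1.41-fold from 6 h to 24 h (adjusted p = 0.00695). A second, dim NAB2 probe set lay at or below the control level on every PBS array and read 132.7, 21.32 and 95.66 at 6 h and 73.44, 43.3 and 66.41 at 24 h. It was at least 1.31-fold higher at 6 h (adjusted p = 0.0394) and did not pass at 24 h (adjusted p = 0.0582), and between the times it gave -0.17 ± 0.49 (adjusted p = 0.853). This probe set passed the filter on dim signals through the hyaluronidase groups, so its call at 6 h is not independent of the filter. With the mean of both probe sets the difference between the times was -0.33 and no longer passed (adjusted p = 0.425).

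NAB1 had the smallest changes of the 9 genes at 6 h. It read 2131, 2160 and 2313 in PBS, 2772, 2719 and 2837 at 6 h, and 1668, 1742 and 1700 at 24 h. Every 6 h array lay above every PBS array, and every PBS array above every 24 h array. Its log2 fold change was 0.33 ± 0.05 at 6 h (1.26-fold, adjusted p = 0.00139), -0.37 ± 0.05 at 24 h (1.29-fold lower, adjusted p = 8e-04) and -0.70 ± 0.05 between the times (adjusted p = 4.86e-05). The fall below PBS was seen with this probe set and not with the others: the next brightest gave 0.37 ± 0.09 at 6 h (adjusted p = 0.0171) but 0.03 ± 0.09 at 24 h (adjusted p = 0.866). Another gave 0.38 ± 0.17 and 0.07 ± 0.17 and passed at neither time (adjusted p = 0.142 and 0.798). The dimmest lay above the control level on 2 of 9 arrays. With the mean of the 4 probe sets NAB1 gave -0.03 at 24 h (adjusted p = 0.879).

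The NR4A receptor genes all rose at 6 h, NR4A1 and NR4A2 from signals near the control level. NR4A2 had the most even values: its main probe set read 39.25, 63.78 and 41.93 in PBS, above the control level on 1 of 3 arrays, 306.6, 296.7 and 304.2 at 6 h, and 240.4, 210.7 and 200.2 at 24 h. All arrays of each hyaluronidase group lay above all PBS arrays. NR4A2 was 5.02-fold higher at 6 h (2.33 ± 0.14, adjusted p = 9.21e-06) and 3.66-fold higher at 24 h (1.87 ± 0.14, adjusted p = 2.03e-05), with the sizes uncertain because of the PBS level. The other NR4A2 probe sets gave 2.05 ± 0.28 and 2.67 ± 0.14 at 6 h and 1.63 ± 0.28 and 2.17 ± 0.14 at 24 h, all past the test. The last of these lay at or below the control level on every PBS array, which gives at least 4.50-fold at 6 h and at least 3.20-fold at 24 h. Between the times NR4A2 gave -0.45 ± 0.14 (adjusted p = 0.0372). That call was lost on leaving out any single 6 h or 24 h array (adjusted p between 0.0781 and 0.107), with a pseudocount of 1 (adjusted p = 0.0704) or without the filter on dim genes (adjusted p = 0.0631). Over all probe sets only one of the 3, at -0.49 ± 0.14, passed (adjusted p = 0.0361).

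NR4A1, also called Nur77, was variable among arrays. Its main probe set read 38.28, 20.85 and 20.18 in PBS, all below the control level, 125.7, 234.5 and 186.7 at 6 h, and 136.4, 130.1 and 39.17 at 24 h. The groups at 6 h and 24 h overlapped, and the third 24 h array (39.17) was close to the first PBS array (38.28). NR4A1 was at least 2.97-fold higher at 6 h (adjusted p = 0.00343) and at least 1.65-fold higher at 24 h (adjusted p = 0.0306), both against the control level. Leaving out any one of PBS replicates 2 and 3 and 24 h replicates 1 and 2 ended the 24 h call, with adjusted p from 0.0863 to 0.0966. It also ended when only the 24 h and PBS arrays were fitted (adjusted p = 0.0532). Averaged over probe sets, NR4A1 gave 0.70 at 6 h (adjusted p = 0.0313) and 0.28 at 24 h (adjusted p = 0.34). Between the times NR4A1 gave -0.85 with a 95% interval of -1.80 to 0.10 (adjusted p = 0.159), which did not pass. Of its other probe sets, one lay below the filter and the other gave 0.02 ± 0.59 at 6 h (adjusted p = 0.982) and -0.07 ± 0.59 at 24 h (adjusted p = 0.943), on signals above the control level on 2 of 9 arrays.

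NR4A3, also called NOR1, was above the control level in every group. The 250 bases before its start, at chr9:99821635-99821884 (+ strand) of GRCh38.p14, are shown because they hold 4 CRE cores (TGACG or its reverse complement, in capitals), a number reached in 0.236% of all windows.
NR4A3 promoter: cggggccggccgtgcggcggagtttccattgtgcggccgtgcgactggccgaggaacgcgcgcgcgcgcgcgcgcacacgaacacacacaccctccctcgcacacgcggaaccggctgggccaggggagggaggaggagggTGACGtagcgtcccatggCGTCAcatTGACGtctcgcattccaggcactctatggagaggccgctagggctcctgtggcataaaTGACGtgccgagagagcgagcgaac
The cores lay at -109 to -105, -91 to -87, -83 to -79 and -25 to -21. No match to the full CRE (TGACGTCA, in 1.65% of windows), which would also hold a core on each strand, or to the NR4A site (AAAGGTCA, in 1.05%) lay in the window.
Neither window of NR4A1 held any motif searched, the NF-kappaB site (in 9.96% of windows) included, and IER2 held 1 CRE core. Windows of 6 of the 9 genes were searched, and none was searched for EGR3, NR4A2 or IER3.

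The main NR4A3 probe set read 319.5, 297.8 and 184.5 in PBS, 436.3, 643.5 and 459.2 at 6 h, and 278.4, 339.7 and 258.6 at 24 h. The 6 h arrays lay above all others, and the 24 h arrays overlapped those of PBS. It rose 1.89-fold at 6 h (0.92 ± 0.23, adjusted p = 0.013) and fell 1.70-fold from 6 h to 24 h (-0.77 ± 0.23, adjusted p = 0.0337). Leaving out any one of 6 h replicates 2 and 3 and 24 h replicates 1 and 3 ended the second call, with adjusted p from 0.0583 to 0.0997, as did fitting without the filter on dim genes (adjusted p = 0.0555). At 24 h the difference from PBS was 0.15 with a 95% interval of -0.38 to 0.67 (adjusted p = 0.649). Another NR4A3 probe set gave 1.24 ± 0.17 at 6 h (adjusted p = 0.00103), 0.44 ± 0.17 at 24 h (adjusted p = 0.0848) and -0.80 ± 0.17 between the times (adjusted p = 0.0115), and a dim one passed in no comparison.

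IER2 and IER3 each had 1 probe set, well above the control level on all 9 arrays. IER2 read 1223, 1358 and 1130 in PBS, 5362, 5214 and 5210 at 6 h, and 3835, 3944 and 3799 at 24 h. No arrays overlapped between groups. It was 4.22-fold higher at 6 h (2.08 ± 0.07, adjusted p = 4.65e-07), 3.10-fold higher at 24 h (1.63 ± 0.07, adjusted p = 1.03e-06) and fell 1.36-fold between the times (adjusted p = 0.00206).

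IER3 read 1496, 1329 and 1265 in PBS, 26590, 26240 and 25630 at 6 h, and 23920, 24570 and 23020 at 24 h. Every 24 h array lay a little below every 6 h array, and all 6 lay far above PBS. IER3 was 19.0-fold higher at 6 h (4.25 ± 0.07, adjusted p = 1.8e-08) and 17.3-fold higher at 24 h (4.12 ± 0.07, adjusted p = 1.5e-08). Between the times it gave -0.13 with a 95% interval of -0.29 to 0.03 (adjusted p = 0.184), which did not pass.

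**Figure D2:**
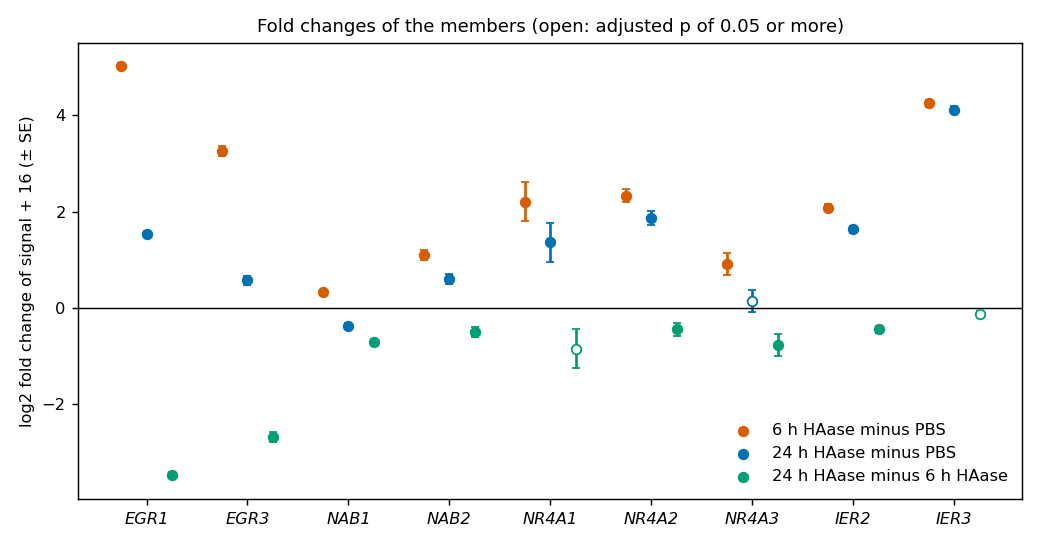
Log2 fold changes of signal + 16 of the 9 genes in the 3 comparisons, with SE bars from the limma model on 3 arrays a group. Filled points passed an adjusted p of 0.05 and open points did not. The values for EGR1 were 5.02 at 6 h and 1.54 at 24 h against PBS and -3.48 between the times, and for IER3 they were 4.25, 4.12 and -0.13.

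As a set, all 9 genes tested passed as higher at 6 h, where 15.0% of all 13842 genes tested did so and 27.4% passed as lower. Their median log2 fold change was 2.21, against -0.083 over all genes tested. At 24 h 7 of the 9 passed as higher and 1 as lower, against 17.5% and 22.8% of all genes, with a median of 1.36 against -0.026. Between 24 h and 6 h 7 of the 9 passed as lower, against 13.3% of all genes, and every one of the 9 log2 fold changes was below 0, whereas 19.7% of all genes passed as higher. The median there was -0.70 against 0.053. These genes were put together with results of these arrays known, and the comparisons with PBS share the PBS arrays, so the counts describe the set. The filter on dim genes used the mean over all 9 arrays. EGR3 and NR4A1, with PBS means of 21.84 and 26.44, lay below its signal of 32.2 in PBS and passed it through the hyaluronidase groups. Their calls as higher are thus not independent of the filter. The smallest two-sided p of an exact permutation test on 3 and 3 arrays is 0.1, so single genes rest on the model fitted across all genes.

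Counted by probe set, 16 of 20 tested passed as higher at 6 h, against 11.9% of 28764 probe sets tested (18.4% lower). At 24 h 11 passed as higher and 1 as lower, against 13.2% and 17.1%. Between the times 11 passed as lower, against 10.1%. All 20 were above 0 at 6 h and all 20 were below 0 between the times. Probe sets of 1 gene are not independent of each other, and those with the suffix _s_at or _x_at can take up other transcripts. The 4 that did not pass at 6 h were 2 of NAB1, 1 of NR4A1 and 1 of NR4A3. Among those that passed, the dimmer NAB2 probe set had means of 12.5 in PBS, 83.24 at 6 h and 61.05 at 24 h. It passed the filter on dim signals through the hyaluronidase groups. Its call as higher at 6 h is thus not independent of the filter.

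**Figure D3:**
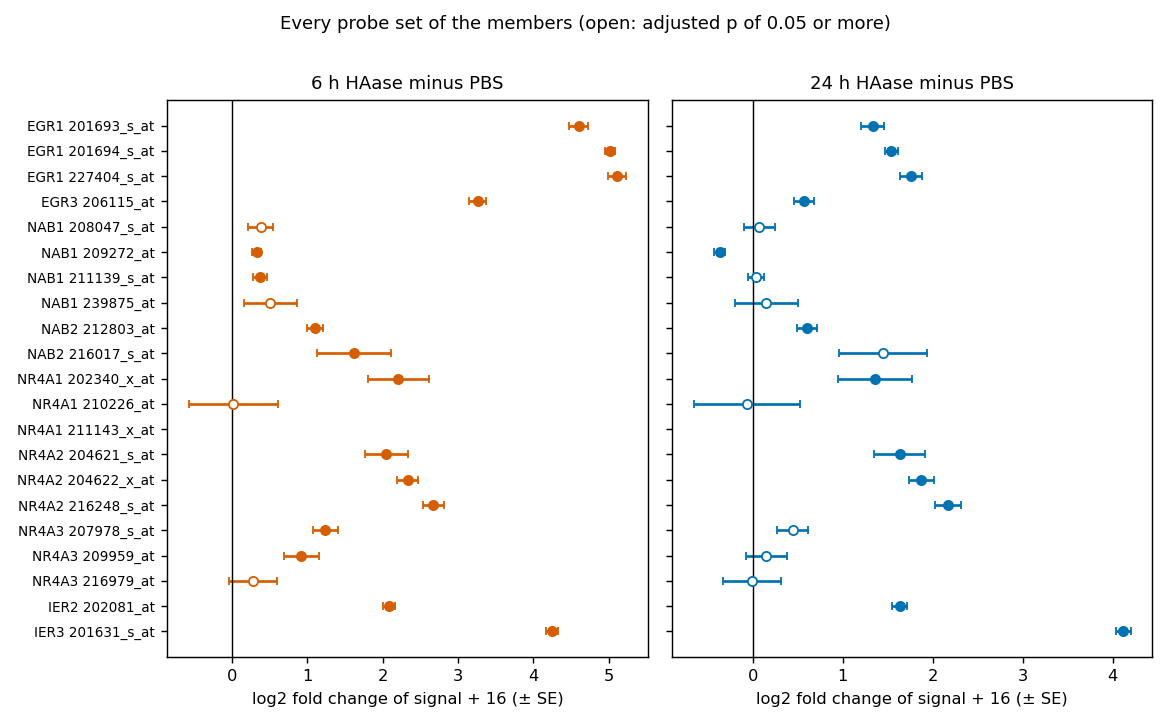
Log2 fold change of signal + 16 for every probe set of the 9 genes at 6 h and at 24 h against PBS, with SE bars, filled where the adjusted p was under 0.05. One NR4A1 probe set lay below the filter and has no point. All 3 EGR1 and all 3 NR4A2 probe sets are filled at both times, while the filled NAB1 point at 24 h (-0.37) lies apart from the other NAB1 points at 0.03, 0.07 and 0.15.

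How much of the early difference was left at 24 h varied widely among the genes. On the deposited linear scale, the 24 h difference from PBS as a percentage of the 6 h difference was 6.08% ± 0.237 (SE from the group spreads, n = 3 a group) for EGR1. It was 90.7% ± 2.08 for IER3, 66.4% ± 4.91 for NR4A2, 65.2% ± 1.47 for IER2 and 45.2% ± 5.05 for NAB2. For NR4A2 the PBS level was above the control level on 1 of 3 arrays only. NR4A3 gave 10.2% ± 18.5, too uncertain to place. NAB1 gave -86.7% ± 19.4, since its main probe set was below PBS at 24 h. No share is given for EGR3 and NR4A1, whose PBS arrays all lay below the control level. This order is a description of 3 arrays a group, with no test of its own.

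**Figure D4:**
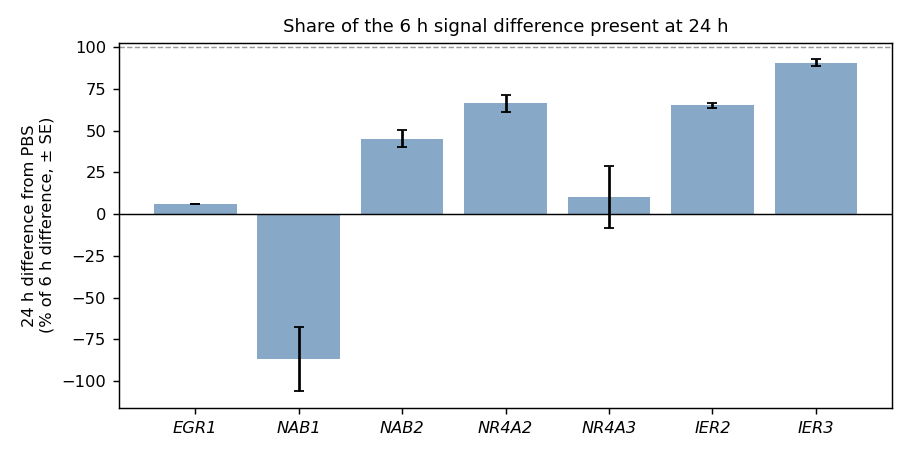
Difference of the 24 h mean signal from the PBS mean as a percentage of the difference of the 6 h mean from the PBS mean, with SE bars propagated from the 3 arrays of each group. The dashed line marks a 24 h difference equal to that at 6 h. EGR3 and NR4A1 have no bar because their PBS arrays lay below the control level. EGR1 stands at 6.08%, IER3 at 90.7% and NAB1 at -86.7%.

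Inputs to EGR transcription are listed against the shares over all genes tested, which were 15.0% higher and 27.4% lower at 6 h and 17.5% and 22.8% at 24 h. Of 19 listed genes of the ERK pathway, the ternary complex factors and SRF, 16 were tested: 6 passed as higher and 3 as lower at 6 h, and 6 and 1 at 24 h, with medians of 0.06 and 0.20. ELK3, a ternary complex factor, rose 4.02-fold at 6 h and 6.24-fold at 24 h (adjusted p = 1.13e-06 and 2e-07), from 1208 ± 117 to 4888 ± 190 and 7600 ± 398 (SD, n = 3 each). Its other probe set, which also passed, gave 1.69-fold and 2.19-fold. The ribosomal S6 kinase genes RPS6KA3 and RPS6KA1 rose 2.36-fold (1.56-fold in its other probe set) and 1.57-fold at 6 h, and the SRF coactivator gene MRTFB fell by 0.68 on the log2 scale and was 1.44-fold lower at 24 h, with its dimmer probe sets not past the test. At 24 h KSR1, a scaffold of the pathway, rose 1.64-fold, a change not past the test in its other probe sets, and the kinase gene MAP2K1 rose 1.63-fold. SRF itself gave 0.16 ± 0.14 at 6 h (adjusted p = 0.401) and 0.33 ± 0.14 at 24 h (adjusted p = 0.108), as a gene picked after its values were seen.

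Among 21 listed genes of CREB, its coactivators and MEF2, inputs to the NR4A genes, 20 were tested. At 6 h 4 passed as higher and 3 as lower, and at 24 h 3 and 4, against 15.0% and 27.4%, and 17.5% and 22.8%, of all genes, so the shares higher (20% and 15%) were near those of all genes. HDAC9, a class IIa deacetylase that represses MEF2, rose 3.65-fold and 4.38-fold, and at most 1.63-fold and 2.40-fold in its dimmer probe sets, and SIK1, a kinase that restrains CREB coactivators and is induced by cAMP, rose 2.33-fold and 2.56-fold. The CREM gene, which makes both activators and repressors, rose 2.76-fold at 6 h. HDAC5 was 1.81-fold lower at 6 h and 1.54-fold lower at 24 h, and SIK2 was 1.92-fold lower at 24 h. At least 1 dimmer probe set of HDAC9, SIK1, HDAC5 and SIK2 did not pass. A CREM probe set brighter in PBS than the main one (means of 993.8 and 755.3) gave only 1.18-fold at 6 h and did not pass (adjusted p = 0.125). Further CREM probe sets passed at 6 h, at 2.22-fold, 2.06-fold and 2-fold.

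The NuRD complex, through which NAB proteins repress, had all 13 listed subunit genes tested: 1 passed as higher and 2 as lower at 6 h, and 1 and 4 at 24 h, where 27.4% and 22.8% of all genes were lower. GATAD2A rose 1.61-fold and 1.46-fold in its brightest probe set, MTA3 was 1.44-fold and 1.28-fold lower and CHD3 1.18-fold and 1.25-fold lower. A second CHD3 probe set also passed, at 1.88-fold and 1.98-fold lower. The dimmer probe set of MTA3 and 2 of GATAD2A did not pass. CHD4, the helicase that NAB proteins bind, was 1.37-fold lower at 24 h (adjusted p = 0.00168), and its other 2 probe sets, both 1.86-fold lower, also passed.

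Of 25 genes reported elsewhere as EGR1 targets, 19 were tested. At 6 h 10 passed as higher and 2 as lower (median 0.31), at 24 h 10 and 4 (median 0.47), and between the times 6 rose and 8 fell. Over all genes 15.0% and 27.4%, 17.5% and 22.8%, and 19.7% and 13.3% passed in the same order. GDF15, a stress cytokine gene, rose 23.8-fold at 6 h and 6.63-fold at 24 h, from 384.8 ± 51.2 to 9472 ± 194 and 2630 ± 136 (SD, n = 3 each). Its other probe set lay at or below the control level on every PBS array, which gives at least 2.36-fold and at least 1.69-fold. IL1B rose 13.8-fold and 29.3-fold, and VEGFA 6.57-fold and 9.57-fold (down to 3.05-fold and 5.07-fold in its other probe sets). FGF2 rose 6.37-fold and 3.9-fold, or 6.13-fold and 5.64-fold in its other probe set. The levels of IL1B and VEGFA were thus further from PBS at 24 h than at 6 h, while those of GDF15 and EGR1 were nearer to it. ID3, an inhibitor of basic helix-loop-helix factors, was 3.45-fold lower at 6 h and 6.56-fold lower at 24 h. This list was drawn up with earlier results for some of its genes known.

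The list of NR4A partners and genes reported elsewhere as NR4A targets held 20 genes, of which only 11 were tested: 1 passed as higher and 4 as lower at 6 h, and 1 and 6 at 24 h, where 27.4% and 22.8% of all genes were lower. RXRA, a heterodimer partner of NR4A1 and NR4A2, went from 3429 ± 347 in PBS to 1443 ± 93.3 at 6 h and 1865 ± 248 at 24 h (SD, n = 3 each), which is 2.36-fold and 1.84-fold lower (adjusted p = 9.53e-05 and 0.000522). The pyruvate dehydrogenase kinase gene PDK4 was 5.04-fold and 2.09-fold lower and LPIN1, a lipid phosphatase gene, 2.49-fold and 3.39-fold lower. CCND1, a cyclin gene, rose 6.67-fold and 17.9-fold, or 3.89-fold and 6.88-fold in its other probe set, from a PBS level above the control level on 2 of 3 arrays.

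Most other immediate early genes were also higher at 6 h. Of 29 tested, 19 passed as higher and 2 as lower at 6 h (median 1.04), 18 and 5 at 24 h (median 0.74), and between the times 1 rose and 20 fell (median -0.36). Over all genes 15.0% and 27.4%, 17.5% and 22.8%, and 19.7% and 13.3% passed. The 2 lower at 6 h were the stress factor gene ATF3 (-0.47) and the Kruppel-like factor gene KLF2 (-0.40), named after their values were seen. MAFF, a small MAF factor gene, rose 16.5-fold and 12.8-fold, or 6.77-fold and 5.24-fold in its other probe set, and FOSL1, an AP-1 factor gene, 6.10-fold and 6.77-fold. FOS was at least 4.33-fold higher at 6 h, from a level below the control level. Its PBS mean of 10.5 lay below the filter's signal of 32.2, and FOS passed the filter through the hyaluronidase groups. The calls of FOS as higher in these counts are thus not independent of the filter. DUSP1, a MAP kinase phosphatase gene, rose 5.79-fold at 6 h, with 1 of its 3 probe sets not past the test. PPP1R15A, a stress phosphatase subunit gene, and CCN1, a matricellular protein gene, rose 4.11-fold and 3.79-fold at 24 h. EGR4, the remaining EGR family gene on the list, gave 0.43 ± 0.38 at 6 h and 0.70 ± 0.38 at 24 h (adjusted p = 0.414 and 0.187) and is named after its values were seen. It was barely detected, at means of 30.47 in PBS, 44.38 at 6 h and 55.92 at 24 h, above the control level on 1, 2 and 2 of 3 arrays.

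**Figure D5:**
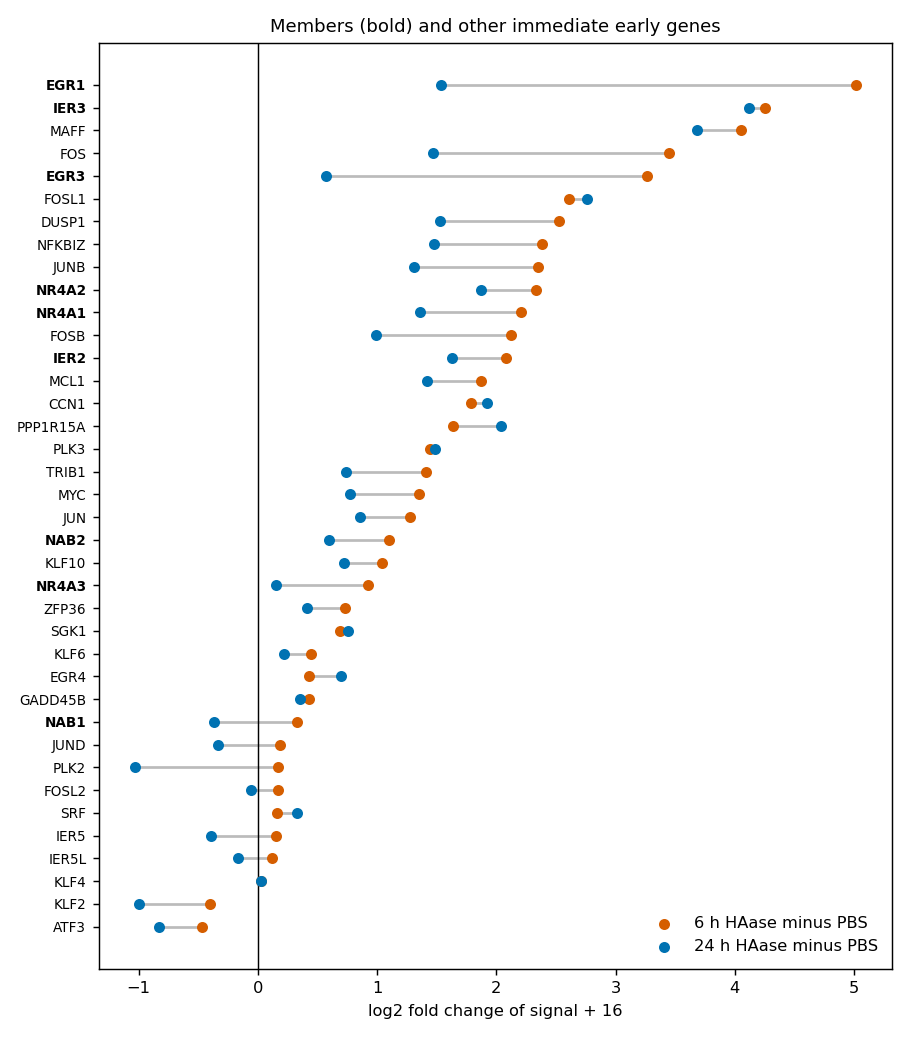
Log2 fold changes of signal + 16 against PBS at 6 h (orange) and 24 h (blue) for the 9 genes, in bold, and 29 other immediate early genes, in the order of the 6 h value. Grey lines join the values of 1 gene. EGR1 (5.02 and 1.54) and EGR3 (3.26 and 0.57) have the longest lines of these genes, while those of IER3 (4.25 and 4.12) and PLK3 (1.44 and 1.49) are short.

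The genes closest in profile were found by the Euclidean distance between log2 values over the 9 arrays, each gene centred on its mean. PTX3 was closest to EGR1 at 0.87, with log2 fold changes of 4.63 and 1.79 at 6 h and 24 h, followed by IL1RN (1.97) and GDF15 (2.09). EGR3 was nearest to C11orf96 (1.31), KRT23 (1.32) and S100A8 (1.45). For NAB1 the closest were MARK1 (0.16), SDC2 (0.22) and RIOK1 (0.22), and for NAB2 they were CMTM3, ZSWIM6 and IRF1 (0.32 each). NR4A1 was nearest to CHST15 (1.13), JUNB (1.26) and PTPRE (1.35), and NR4A3 to C9orf47 (0.61), MIDEAS (0.61) and GLIS2 (0.64).

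NR4A2 and IER2 had near neighbours in common. HS3ST3A1 and CASP4 were among the 3 closest to both, at 0.37 and 0.42 from NR4A2 and 0.23 and 0.25 from IER2. The other closest genes were HRH1 (0.33) for NR4A2 and SMIM3 (0.25) for IER2. IER3 was closest to INHBA (0.54), MAFF (0.58) and HBEGF (0.61), each of which was also far above PBS at both times, with INHBA at 4.59 and 4.46. Distances describe 9 arrays of 3 groups, and weakly changing genes lie close to many others.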

How the data were processed

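Total RNA of 9 samples was hybridised to 9 Affymetrix Human Genome U133 Plus 2.0 arrays. The authors deposited signal intensity on a linear scale for each probe set, derived from CHP files according to the design text. Which summarisation algorithm made it is not given in the sources used here. On every array the mean after trimming 2% at each end was between 500.0696 and 500.0746; the deposited values were thus already scaled per array. Precision is limited by how many arrays there are.

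Of 54675 probe sets, 41091 had 1 gene symbol in the platform annotation, 1801 several and 11721 none. The last 2 kinds were left out. The gene IDs of 41037 were found in a RefSeq table of GRCh38.p14, where all symbols were current.

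Values were taken as log2(signal + 16), a scale that understates changes of dim genes. For each gene the brightest probe set by mean log2 value was kept, genes with a mean below the 30th percentile (a signal of 32.2) were dropped, and 13842 genes were fitted with limma 3.58.1 in R 4.3.3, with 3 group means over all 9 arrays. Adjusted p-values are limma's with Benjamini-Hochberg adjustment over all genes of a comparison. They come from a second fit over 28764 probe sets where a gene's other probe sets are described. Genes passed at an adjusted p under 0.05. The fit was tested on simulated data. A group at or below the control level on all 3 arrays has only an upper bound, and its fold is given as "at least".

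The genes named were all members, up to 4 genes per list by size of change among those called against PBS, and the 3 closest genes to each member. The members and lists were chosen with earlier results of these data known. Alternatives covered the pseudocount, the filter, array scaling, the choice of probe set, the variance model, the arrays fitted, a replicate block and leaving out each array. Promoter windows come from RefSeq, build GRCh38.p14. The array files name no genome build.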

Additional observations from a re-analysis of the deposited data

Results flagged for a closer look

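Between 6 h and 24 h of hyaluronidase, 7 of the 9 genes differed by limma's test of 24 h minus 6 h (log2), all lower at 24 h. Of all genes tested, 13.3% passed as lower and 19.7% as higher. The changes against PBS at both times share the same 24 h PBS arrays, so this is the comparison between the times given above. With no PBS sample at 6 h, the time of harvest and the length of treatment cannot be told apart in it. The differences were -3.48 for EGR1 (adjusted p = 1.06e-07), -2.69 for EGR3 (3.01e-06) and -0.70 for NAB1 (4.86e-05). They were -0.50 for NAB2 (adjusted p = 0.00695), -0.45 for IER2 (0.00206), -0.77 for NR4A3 (0.0337) and -0.45 for NR4A2 (0.0372). IER3 (adjusted p = 0.184) and NR4A1 (adjusted p = 0.159) did not pass. NAB1 was on opposite sides of PBS at the 2 times, higher at 6 h and lower at 24 h, in 1 of its 4 probe sets. The NR4A2 difference did not pass with a replicate block (adjusted p = 0.063) or without any single 6 h or 24 h array, and that of NR4A3 did not pass on leaving out any one of 4 arrays. Between 5 and 7 of the genes passed as lower over the alternatives run.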

How the results depend on the processing

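Of 504 fold changes of the 9 genes recomputed under alternatives, 482 kept their direction and their side of the threshold, 21 kept their direction but no longer passed, and 1 turned: NR4A3 at 24 h against PBS, which never passed, ranged from -0.08 to 0.29 when each array was left out in turn and was -0.08 without PBS replicate 3. With the filter at the 50th percentile, 4 of the 9 genes passed as higher at 24 h against PBS instead of 7, because 3 dim genes were no longer tested. With the mean of probe sets, 0 passed as lower at 24 h against PBS instead of 1 (NAB1, -0.03), and 1808 rather than 2731 of all genes passed as higher at 24 h against 6 h. The cause was not tested.

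The replicate numbers of the titles did not pair the arrays: deviations of same-numbered arrays correlated between -0.049 and 0.037 in 9 pairs, and 4 of 18 best correlations were with the own number. With a replicate block, 9 genes passed as higher at 6 h, 7 as higher and 1 as lower at 24 h, and 6 instead of 7 as lower between the times, since NR4A2 was lost (-0.45, adjusted p = 0.063). Over all genes the block gave 1929 higher and 3518 lower at 6 h, 2237 and 2950 at 24 h, and 2442 and 1675 between the times.

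Signals near the control level limit EGR3 and NR4A1 in PBS, and NR4A2 to a lesser degree.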
